A study of Mus musculus with 18 samples.

Results

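The growth factor receptors of the hepatocyte were followed across mouse livers and liver tumours by RNA sequencing. The set was 10 genes, taken by symbol from a deposited table of 54838 genes: Egfr, Erbb2, Erbb3, Met, Fgfr1, Fgfr2, Fgfr3, Fgfr4, Klb and Igf1r. Each symbol occurred in 1 row, so all 10 were found, and their levels were read in all 18 samples. The samples were 6 groups of 3, from C57BL/6 mice aged 36 weeks according to the labels. WT mice and miR-181ab1 knockout mice (GKO, a global knockout that lacks Mir181a-1 and Mir181b-1 in every tissue) each gave untreated normal livers, liver tumours and non-tumour liver tissue. Tumour and non-tumour groups received diethylnitrosamine (DEN, a carcinogen that liver enzymes activate) by a single intraperitoneal injection of 25 mg per kg at postnatal day 12. Since the deletion is global, a difference between genotypes can arise in any cell of the liver or outside it. The labels do not say whether replicates came from separate animals. The study's supplement speaks of separate mice for messenger RNA levels of tumour and non-tumour tissue without naming these libraries, so p-values measure the spread between these samples, which may in part be technical.

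The receptors of the set are tyrosine kinases of the cell surface, with Klb as the exception. Binding of a ligand pairs the receptors, the kinases phosphorylate each other, and adaptors such as Grb2 and Shc1 then pass the signal to the MAPK and PI3K cascades. Egfr, Erbb2 and Erbb3 belong to the ERBB family, in which Erbb2 has no ligand of its own and Erbb3 has little kinase activity, so both act in pairs with other members. Met is the receptor of hepatocyte growth factor. Fgfr1 to Fgfr4 bind fibroblast growth factors, and Klb (beta-Klotho) is the co-receptor that lets them respond to the hormones Fgf15 and Fgf21. In hepatocytes Fgfr4 with Klb receives the intestinal signal that turns down bile acid synthesis. Igf1r binds the insulin-like growth factors, which the liver secretes but hepatocytes hardly sense, and Egfr and Met are known as the receptors that drive regeneration of the liver.

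The deleted genes encode the following microRNAs, whose mature sequences (RefSeq, GRCm38.p6) are shown with the seed, bases 2 to 8, in capitals. At the deleted genes they lie on chr1:137966468-137966490 and chr1:137966650-137966673 of the plus strand. Both carry the same seed, so they share their target word TGAATGT. The genes Mir181a-2 and Mir181b-2, which the deletion leaves in place, encode the same mature sequences, and the seed is thus not absent from GKO mice by design.
miR-181a-5p: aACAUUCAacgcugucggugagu
miR-181b-5p: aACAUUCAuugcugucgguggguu
A match to this word was searched on the sense strand of the longest annotated 3′ UTR of each receptor (GENCODE mouse release 21, mm10). Egfr, Fgfr2 and Met held 1 match each and the other 7 receptors held none. The matches are shown with the word in capitals. Shorter matches to the seed and other UTR forms were not searched, so a receptor without this word is not shown to lack a site. Each window is written along the gene's own strand.
Egfr, chr11:16915951-16915979, plus strand: tttctcttaggTGAATGTctagcattatt
Fgfr2, chr7:130163940-130163958, minus strand: gTGAATGTgtcttcctgtc
Met, chr6:17572744-17572772, plus strand: ttctgatctaaTGAATGTggacatttaaa
The Fgfr2 match starts at nucleotide 2 after the stop codon, the Met match at nucleotide 932 and the Egfr match at nucleotide 4107. Each is a match of 7 bases. Of 11754 tested genes with an annotated 3′ UTR, 2067 (17.6%) held the word. Long UTRs hold it more often: among genes with a 3′ UTR of like length (0.8 to 1.25 times), the share was 58.1% for Egfr (6303 nucleotides), 25.8% for Met (2157) and 20.5% for Fgfr2 (1508). A match describes letters and not a bound site.

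The libraries held between 11925055 and 20751348 reads on genes. The deleted genes could not check the genotype labels, because Mir181a-1 had 1 read in 1 of 18 samples (GKO tumour 3) and Mir181b-1 had none, where 3 reads is the limit that a count of 0 allows. The hepatocyte markers (Alb, Ttr, Apoa1, Trf, Hnf4a and Cps1) were present in all samples, with a summed level of 59142 to 92070 TPM in the 12 livers and 170440 to 204451 TPM in the 6 tumours. That gap lay in Alb and Apoa1, whereas Ttr, Trf, Hnf4a and Cps1 overlapped between livers and tumours. Replicates of a group correlated at 0.919 to 0.979 (Pearson's r of log2 values), apart from WT tumours 1 and 2, which were closer to each other (0.982). WT non-tumour liver 2 stood apart in its group, at 0.929 and 0.933 with the other two, which correlated at 0.969 with each other. It held 2.95 TPM of Cyp8b1, a bile acid enzyme, against 357 and 356 TPM, and 6.23 TPM of the stromal gene Dcn against 35.7 and 30.6 TPM. Leaving it out changed no receptor's call.

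Levels are given as TPM, reads per unit of gene length scaled to the same total in every sample, so genes can be compared with each other. In the 6 normal livers Egfr was the highest receptor at 26.6 ± 5.45 TPM (SD, n = 6) and ranged from 22.7 to 37.3. Erbb3 followed at 19.7 ± 2.79 and Fgfr4 at 17.5 ± 4.92. The ranges of Egfr and Erbb3 did not overlap, whereas those of Erbb3 and Fgfr4 did. Met stood below them at 8.98 ± 1.48 TPM, with no overlap with Fgfr4. Fgfr3 (5.05 ± 2.75), Fgfr2 (4.37 ± 0.944) and Klb (3.30 ± 0.745) came next, and from Met to Klb each gene overlapped the one below it. Fgfr1 (0.654 ± 0.238), Erbb2 (0.448 ± 0.196) and Igf1r (0.406 ± 0.190) were the lowest, all below the range of Klb and not separable from each other. Normal liver therefore held 3 receptors with means of 17.5 TPM or more, 4 from 3.30 to 8.98 TPM and 3 below 1 TPM.

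The order differed in the tumours. In WT tumours Fgfr2 rose from the 7th place it had in WT non-tumour livers to the 3rd, at 19.1 ± 7.77 TPM, and its range then overlapped those of Fgfr4 above it and Erbb3 below it. Over all 18 samples the highest and lowest value of Fgfr2 differed 111-fold, from 0.252 TPM (24 reads, GKO tumour 1) to 27.8 TPM (2537 reads, WT tumour 3). Fgfr1 spanned 67.1-fold, but from 2 to 119 reads, so counting error is large at its lower end. Fgfr4 was the steadiest, from 14.1 to 32.8 TPM (2.32-fold). The spans of the other receptors ran from 3.33-fold for Met to 17.3-fold for Erbb2, the latter from 3 to 52 reads.

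**Figure D1:**
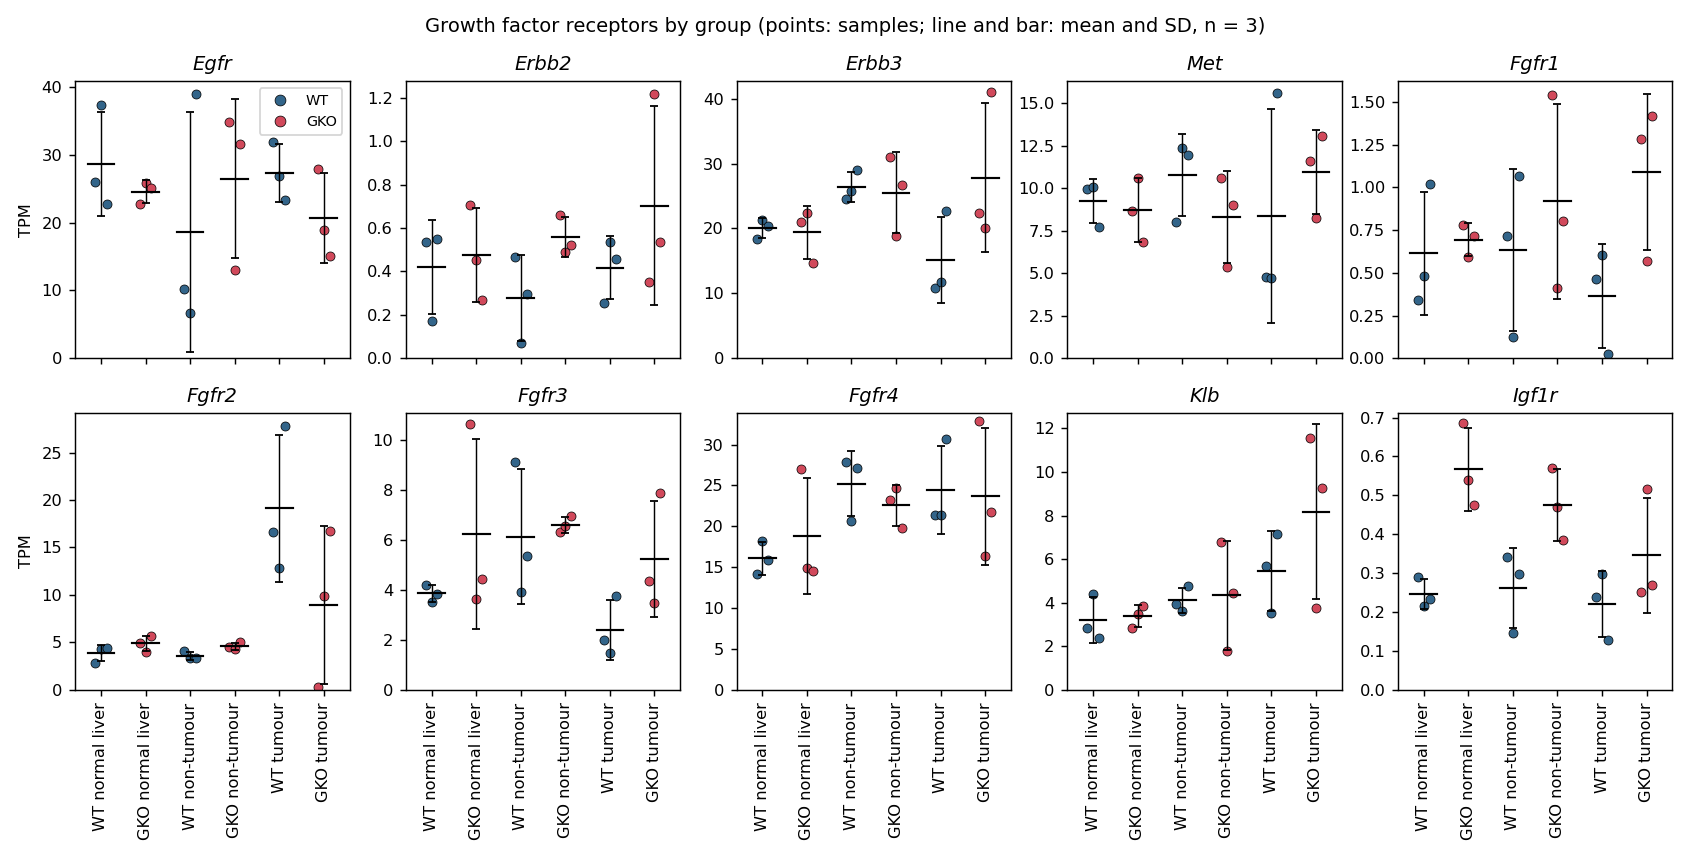
TPM of the 10 receptors in each of the 18 samples (points; WT blue, GKO red), with the mean and SD of each group of 3; each panel has its own vertical axis, which starts at 0. Fgfr2 is between 2.87 and 5.68 TPM in all 12 livers, 12.9 to 27.8 in WT tumours and spread from 0.252 to 16.8 in GKO tumours. Igf1r, a low gene that was not called, is higher in GKO than in WT livers without overlap.

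Differences were tested with limma on log2(TPM + 1) across all genes whose mean reached 0.5 TPM in the compared samples, and calls were made at an adjusted p (Benjamini-Hochberg) under 0.05. Fold changes are on this log2 scale, which understates those of low genes. The median over all genes tested lay between −0.15 and 0.23 in the 8 comparisons, and was furthest from 0 for the interaction (0.23), non-tumour against normal livers (0.21) and GKO tumours against GKO non-tumour livers (0.20), and receptor values are read beside it. Igf1r passed the filter in 0 of 8 comparisons and Erbb2 in 2 of 8. Both of those included GKO tumours, the group with its highest mean, and against WT tumours (0.417 TPM) it passed only through them. Fgfr1 passed in 7 of 8, and the other 7 receptors in all 8.

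Between WT tumours and WT non-tumour livers, 1 of the 7 receptors tested was called, Fgfr2, where 4.23% of 14003 genes were called. Of these 7, 3 (Fgfr2, Fgfr3 and Erbb3) had an unadjusted p under 0.05 by limma (19.9% of all genes). With WT tumours 1 and 2 averaged as 1 sample this was 1 receptor, and with 1 library left out it was 1 to 4. Between GKO tumours and GKO non-tumour livers, 0 of 9 receptors were called by limma against 11.7% of 14092 genes, and 0 had an unadjusted p under 0.05 (31.7% of all genes). Over both genotypes, with genotype as a term, 0 of 8 receptors were called against 20.1% of 14106 genes, and 1 (Fgfr3) had an unadjusted p under 0.05 (35.0% of all genes). Between GKO and WT tumours, 0 of 9 were called against 0.0215% of 13964 genes, and 1 (Fgfr3) had an unadjusted p under 0.05 (8.87% of all genes). With WT tumours 1 and 2 averaged no receptor had such a p, and with 1 library left out 0 to 3 had one. With voom on the recovered reads these counts of called receptors were 1, 0, 1 and 0 in the same order. The WT tumour samples enter both the first and the last of these comparisons, so the values of a receptor in them are not independent. The remaining comparisons are of livers: 0 of 8 receptors were called between GKO and WT non-tumour livers (0% of 13768 genes), and 0 had an unadjusted p under 0.05 by limma (5.80% of all genes) and 1 by voom. Between GKO and WT normal livers 0 of 8 were called (0% of 13099 genes), and 0 had an unadjusted p under 0.05 by limma (3.96% of all genes) or voom. Between non-tumour and normal livers of both genotypes 0 of 8 were called (0.4% of 13488 genes), and 2, Fgfr4 and Erbb3, had an unadjusted p under 0.05 by limma (20.8% of all genes) and 0 by voom. For the interaction, the genotype difference in tumours minus that in non-tumour livers, 0 of 8 were called (0.0142% of 14106 genes), and 0 had an unadjusted p under 0.05 by limma or voom.

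**Figure D2:**
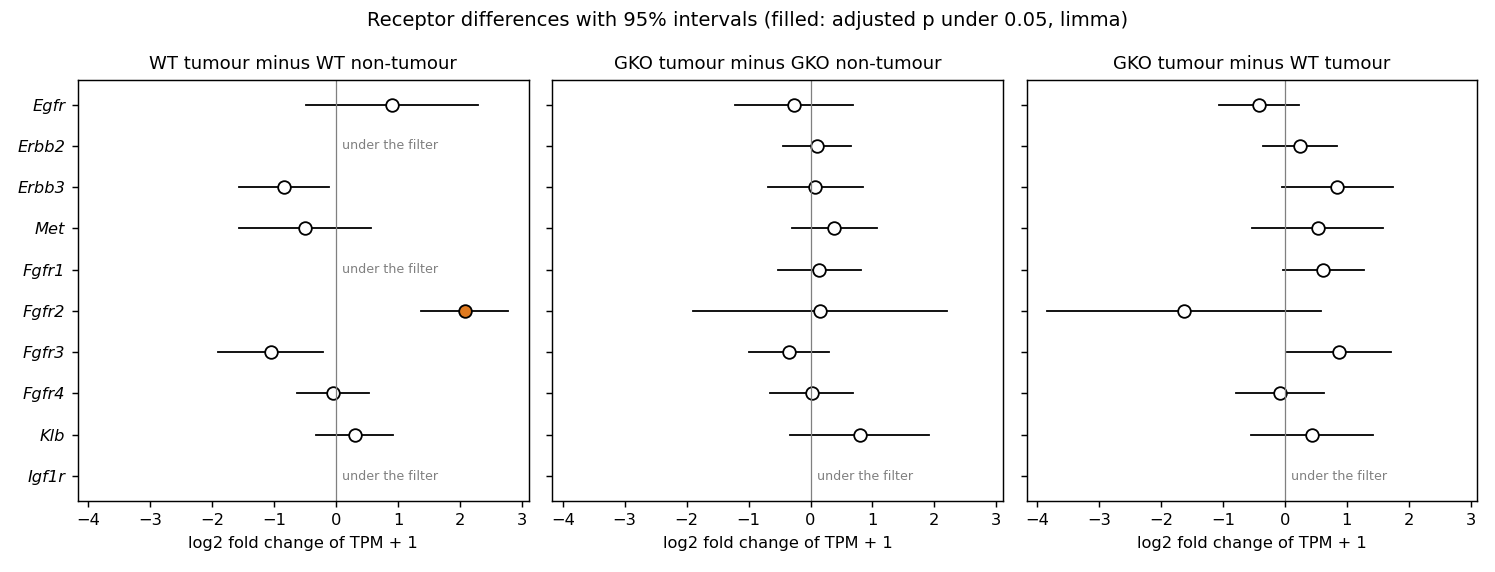
Log2 fold change (TPM + 1) of each receptor in 3 comparisons, with 95% intervals; filled points have an adjusted p under 0.05. Fgfr2 in WT tumours, at 2.07, is the 1 filled point, and its intervals in the comparisons with GKO tumours are the widest of the plot.

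Fgfr2, whose epithelial form binds Fgf7 and Fgf10 from neighbouring stroma, carried the largest tumour difference of the set in WT mice and with the genotypes together, but not in GKO mice. It was at 16.7, 12.9 and 27.8 TPM in WT tumours 1 to 3 and at 4.04, 3.32 and 3.36 TPM in WT non-tumour livers 1 to 3. Every WT tumour was above every WT non-tumour liver, and the mean was 5.36 times as high. The log2 fold change was 2.07 (95% interval 1.37 to 2.78, adjusted p = 0.0149, limma). It stayed between 1.78 and 2.32 under all 16 alternatives. The adjusted p rose to 0.0596 when WT non-tumour liver 1 was left out, to 0.0699 for WT non-tumour liver 3 and to 0.0633 for WT tumour 1, so the call did not hold in these fits. Their log2 fold changes were 2.15, 2.04 and 2.13, with fewer samples on 1 side. Beside it, Alb and Apoa1 and with them the summed hepatocyte markers were higher in all tumours than in all livers, while the other 4 markers overlapped. Their part in the Fgfr2 difference was not tested. In bulk tissue, fewer cells of a type and less RNA per cell cannot be told apart.

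GKO tumours did not form a group for Fgfr2. GKO tumours 2 and 3 held 9.86 and 16.8 TPM, while GKO tumour 1 held 0.252 TPM, which was the lowest value of all 18 samples. GKO non-tumour livers stood between these extremes, at 4.50, 4.29 and 5.02 TPM. Against them the log2 fold change was 0.16 (95% interval −1.90 to 2.21, adjusted p = 0.917). Without GKO tumour 1 it was 1.31 and called (adjusted p = 0.0425), and without GKO tumour 3 it was −0.60 (adjusted p = 0.668). The direction also turned with a pseudocount of 0.1 (−0.27), median centring (−0.08), quantile normalization (−0.05) and voom (−0.67). With the genotypes together Fgfr2 differed by 1.11 (95% interval −0.13 to 2.36, adjusted p = 0.187), and without GKO tumour 1 by 1.74 (adjusted p = 0.000721).

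Against WT tumours, Fgfr2 in GKO tumours differed by −1.62 (95% interval −3.84 to 0.59, adjusted p = 0.652), and the groups overlapped. The genotype difference in tumours minus that in non-tumour livers was −1.92 (95% interval −4.21 to 0.38, adjusted p = 0.503). GKO tumours 2 and 3 also differed from the rest in the cholangiocyte list (Krt7, Krt19, Epcam, Sox9, Spp1, Cftr and Pkhd1). Its summed level was 38.5, 959.8 and 549 TPM in GKO tumours 1 to 3 and 22.9 to 54.2 TPM in WT tumours. Most of it was Spp1, a secreted phosphoprotein that tumour cells and macrophages can also make, at 34.0, 934 and 536 TPM in GKO tumours 1 to 3, while Krt7 stayed below 1 TPM in every sample. Cftr was at 0 in 2 of the 3 GKO tumours and 2 of the 3 WT tumours. Of the 5 cholangiocyte markers tested between GKO and WT tumours 0 were called, with 3 at an unadjusted p under 0.05. The part of these cells in the Fgfr2 values was not tested. Between livers of the genotypes, GKO minus WT was 0.29 in non-tumour livers (95% interval −0.11 to 0.70, adjusted p = 0.643), without overlap, and 0.29 in normal livers (95% interval −0.20 to 0.77, adjusted p = 0.999), with overlap.

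**Figure D3:**
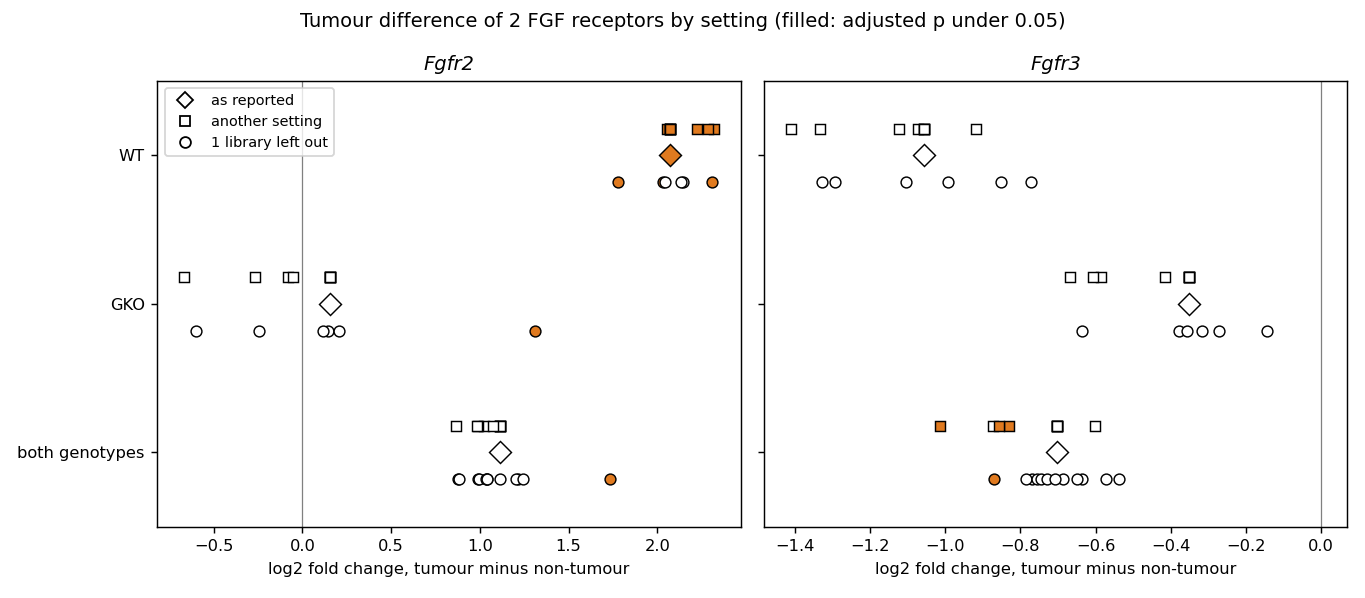
Log2 fold change of Fgfr2 (left) and Fgfr3 (right), tumours minus non-tumour livers, in WT, GKO and both genotypes, as reported (diamonds), under each other setting (squares) and with 1 library left out (circles); filled symbols have an adjusted p under 0.05. For Fgfr2 in GKO mice the values run from −0.67 to 1.31, with 1 filled circle where GKO tumour 1 was left out; Fgfr3 lies below 0 throughout and is filled only with the genotypes together.

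Fgfr3, which responds to several fibroblast growth factors and restrains bone growth, had a tumour difference of opposite sign in WT mice. It was at 1.99, 1.46 and 3.77 TPM in WT tumours and at 9.13, 3.90 and 5.38 TPM in WT non-tumour livers, without overlap. The log2 fold change was −1.06 (95% interval −1.91 to −0.21), and it did not pass the adjustment (adjusted p = 0.171). GKO tumours held 4.35, 3.48 and 7.88 TPM and GKO non-tumour livers 6.33, 6.56 and 6.97 TPM, a difference of −0.35 (95% interval −1.0 to 0.30, adjusted p = 0.408) with 1 tumour above all 3 livers. With the genotypes together the log2 fold change of Fgfr3 was −0.70 (95% interval −1.25 to −0.16, adjusted p = 0.0664). This value was close to the threshold: the adjusted p was 0.0295 with median centring, 0.0265 with quantile normalization, 0.0481 with all 18 samples in 1 fit, 0.0287 with voom and 0.0219 without GKO tumour 3. Between GKO and WT tumours Fgfr3 differed by 0.87 (95% interval 0.03 to 1.71), the receptor with the smallest unadjusted p in that comparison (0.0449, adjusted p = 0.549), and the groups overlapped. The interaction was 0.71 (95% interval −0.33 to 1.75, adjusted p = 0.557). Among normal livers GKO normal liver 1 stood apart at 10.6 TPM, with the other 5 between 3.54 and 4.43 TPM, and the genotypes differed by 0.45 (95% interval −0.33 to 1.23, adjusted p = 0.999).

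Fgfr4, the main fibroblast growth factor receptor of hepatocytes, had the smallest difference of the tested receptors in each of the 3 comparisons plotted with intervals. It was at 21.3, 21.4 and 30.6 TPM in WT tumours, 27.8, 20.7 and 27.2 TPM in WT non-tumour livers, and 32.8, 16.4 and 21.7 TPM in GKO tumours. These groups overlapped. WT tumours differed from WT non-tumour livers by −0.05 (95% interval −0.63 to 0.52, adjusted p = 0.936) and GKO from WT tumours by −0.08 (95% interval −0.80 to 0.63, adjusted p = 0.953). Non-tumour livers differed from normal livers by 0.46 (95% interval 0.09 to 0.82, unadjusted p = 0.0192, adjusted p = 0.179). That comparison sets 23.9 TPM in 6 non-tumour livers against 17.5 TPM in 6 normal livers. It overlapped through GKO normal liver 1, at 27.0 TPM, which was also the normal liver with the most Fgfr3.

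Klb, the partner of Fgfr4, was at 5.66, 3.53 and 7.17 TPM in WT tumours and 3.96, 3.63 and 4.75 TPM in WT non-tumour livers. In GKO mice it was at 11.6, 3.74 and 9.24 TPM in tumours and 6.79, 1.77 and 4.44 TPM in non-tumour livers. The highest 2 of the 18 values were GKO tumours 1 and 3, but both tumour groups overlapped their non-tumour livers. The log2 fold changes were 0.30 in WT (95% interval −0.32 to 0.92, adjusted p = 0.586) and 0.79 in GKO (95% interval −0.33 to 1.91, adjusted p = 0.288). Over both genotypes Klb differed by 0.55 (95% interval −0.10 to 1.19, adjusted p = 0.210), and between GKO and WT tumours by 0.43 (95% interval −0.54 to 1.41, adjusted p = 0.766).

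Fgfr1, which is mostly a receptor of stromal cells in liver, stayed low in every group. It was at 0.466, 0.604 and 0.0229 TPM in WT tumours (38, 49 and 2 reads) and at 1.28, 0.570 and 1.42 TPM in GKO tumours (117, 46 and 115 reads). WT tumour 3 was the lowest of all 18 samples, and GKO tumour 2 lay within the WT range. GKO tumours differed from WT tumours by 0.62 (95% interval −0.04 to 1.27, adjusted p = 0.568), in a comparison that Fgfr1 entered only through GKO tumours (mean 1.09 TPM against 0.364 TPM in WT). The fibroblast and stellate cell markers, 10 genes of which Col1a1 and Pdgfrb are 2, had a higher sum beside it: their summed level was 130, 196 and 104 TPM in GKO tumours and 82.5, 99.1 and 56.0 TPM in WT tumours, without overlap, with 7 of 10 higher, 0 called and 5 at an unadjusted p under 0.05. Their part in the Fgfr1 values was not tested.

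Egfr, the receptor of EGF, TGF-alpha and related ligands, varied most among non-tumour livers. WT non-tumour livers held 10.3, 6.65 and 39.0 TPM, and GKO non-tumour livers 34.8, 13.05 and 31.5 TPM, so each group had low and high samples. Normal livers were even by comparison (22.7 to 37.3 TPM), and so were WT tumours, at 31.9, 26.9 and 23.3 TPM. GKO tumours held 28.0, 18.8 and 15.1 TPM. WT tumours differed from WT non-tumour livers by 0.90 (95% interval −0.49 to 2.28, adjusted p = 0.452), and GKO tumours from GKO non-tumour livers by −0.27 (95% interval −1.22 to 0.68, adjusted p = 0.667). These differences have opposite signs, and the interaction was −1.17 (95% interval −2.87 to 0.53, adjusted p = 0.554). GKO and WT tumours differed by −0.42 (95% interval −1.07 to 0.23, adjusted p = 0.688), non-tumour livers by 0.75 (95% interval −0.81 to 2.31, adjusted p = 0.666) and normal livers by −0.19 (95% interval −0.68 to 0.30, adjusted p = 0.999). All groups in these comparisons overlapped. Non-tumour and normal livers differed by −0.48 (95% interval −1.30 to 0.35, adjusted p = 0.455).

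Erbb3, a partner of Egfr in hepatocytes and a receptor of neuregulins, separated WT tumours from WT non-tumour livers in value but not by the test. It was at 10.8, 11.8 and 22.7 TPM in WT tumours and 24.5, 25.8 and 29.0 TPM in WT non-tumour livers. The groups did not overlap, although WT tumour 3 was near the livers. The log2 fold change of −0.84 (95% interval −1.57 to −0.12, unadjusted p = 0.0289) did not pass the adjustment (adjusted p = 0.198). Without WT tumour 3 it was −1.16 and was called (adjusted p = 0.0217). GKO tumours held 22.4, 20.1 and 41.1 TPM against 31.1, 18.8 and 26.7 TPM in GKO non-tumour livers, and these groups overlapped. GKO tumours differed from WT tumours by 0.85 (95% interval −0.05 to 1.74, adjusted p = 0.567), and the interaction was 0.92 (95% interval −0.11 to 1.95, adjusted p = 0.490). With the genotypes together the tumour difference was −0.38 (95% interval −0.95 to 0.19, adjusted p = 0.322). Non-tumour livers differed from normal livers by 0.38 (95% interval 0.06 to 0.70, unadjusted p = 0.0249, adjusted p = 0.195).

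Erbb2 was low throughout, between 0.0705 and 1.22 TPM (3 to 52 reads). Its highest value was in GKO tumour 2, followed by 0.704 TPM in GKO normal liver 1. GKO tumours differed from WT tumours by 0.24 (95% interval −0.35 to 0.83, adjusted p = 0.789). In non-tumour livers its values did not overlap between genotypes, at 0.662, 0.490 and 0.524 TPM in GKO and 0.467, 0.0705 and 0.298 TPM in WT, a ratio of means of 2.00. There Erbb2 was under the filter, and the fit without a filter gave 0.30 (95% interval −0.06 to 0.65, adjusted p = 0.729).

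Met was split within the WT tumours, at 4.79, 4.69 and 15.6 TPM. These are the 2 lowest values and the highest value of the 18 samples. WT non-tumour livers held 8.004, 12.3 and 12.0 TPM, GKO tumours 11.6, 8.25 and 13.04 TPM, and GKO non-tumour livers 10.6, 5.35 and 8.997 TPM. WT tumours differed from WT non-tumour livers by −0.50 (95% interval −1.56 to 0.56, adjusted p = 0.593), and GKO tumours from GKO non-tumour livers by 0.38 (95% interval −0.30 to 1.07, adjusted p = 0.388). The interaction was 0.89 (95% interval −0.36 to 2.13, adjusted p = 0.542). GKO and WT tumours differed by 0.53 (95% interval −0.53 to 1.58, adjusted p = 0.739) and non-tumour livers by −0.36 (95% interval −1.05 to 0.33, adjusted p = 0.654).

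Egfr, Met and Fgfr2, which hold the seed match shown above, had log2 fold changes of mixed sign between genotypes. In GKO against WT tumours their log2 fold changes were −0.42, 0.53 and −1.62, and in non-tumour livers 0.75, −0.36 and 0.29. None was called in a comparison of genotypes, by limma or voom.

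Igf1r was the 1 receptor whose values separated the genotypes in normal livers and again in non-tumour livers, at a low level, while Fgfr2 and Erbb2 did so in non-tumour livers alone. With 3 samples a side, full separation gives an exact rank test p of 0.1 at the least. The share of all genes that separate in this way is not given here, so these separations are descriptions. In normal livers it was at 0.289, 0.214 and 0.234 TPM in WT (33, 32 and 41 reads) and at 0.685, 0.539 and 0.476 TPM in GKO (94, 73 and 68 reads). Every GKO value was above every WT value. The same held in non-tumour livers, with 0.341, 0.146 and 0.299 TPM in WT and 0.570, 0.471 and 0.384 TPM in GKO. In tumours the groups overlapped, at 0.238, 0.297 and 0.128 TPM in WT and 0.251, 0.517 and 0.268 TPM in GKO. The mean of GKO was 2.30 times that of WT in normal livers, 1.82 times in non-tumour livers and 1.56 times in tumours. Igf1r was under the filter, so these differences come from the fit without a filter, where none was called. It gave 0.33 in normal livers (95% interval 0.04 to 0.61, unadjusted p = 0.0294, adjusted p = 0.940), 0.23 in non-tumour livers (95% interval −0.04 to 0.49, adjusted p = 0.729) and 0.14 in tumours (95% interval −0.14 to 0.41, adjusted p = 0.756). Igf1r holds no match to the seed in the UTR searched, although 71.5% of genes with a UTR of its length do.

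In normal livers the summed markers of 3 other cell types also lay higher in GKO than in WT without overlap, and no marker was called. The fibroblast and stellate cell list summed to 73.4 to 95.5 TPM in GKO and 43.1 to 56.7 TPM in WT, with all 10 markers higher, 0 called and 6 at an unadjusted p under 0.05. The endothelial list summed to 47.7 to 58.9 TPM in GKO and 28.6 to 33.3 TPM in WT, with 7 of 8 markers higher, 0 called and 3 at an unadjusted p under 0.05. The cholangiocyte list summed to 83.1 to 92.6 TPM against 33.3 to 50.7 TPM, with 3 of the 4 tested markers higher and 0 called, and Cftr was at or near 0. The macrophage list overlapped, at 66.8 to 180 TPM in GKO and 72.4 to 127 TPM in WT, with 5 of 8 markers higher and 0 at an unadjusted p under 0.05. In non-tumour livers the fibroblast list did overlap, at 57.8 to 83.6 TPM in GKO and 49.7 to 72.7 TPM in WT. The part of these cells in the Igf1r values was not tested.

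The ligands, co-receptors, adaptors and inhibitors around the receptors were read from lists of 75 genes. Over both genotypes, 54 passed the filter, of which 12 were higher and 1 lower in tumours by limma, which is 24.1% of them against 20.1% of all genes. In GKO mice 10 of 55 were higher and 1 lower (20% against 11.7% of all genes), and in WT mice 2 of 52 were higher and 2 lower (7.69% against 4.23%). The calls within a genotype were not stable with 1 library left out. The 11 in GKO became 1 without GKO non-tumour liver 3, 3 without GKO non-tumour liver 2 and 6 without GKO tumour 2 or GKO tumour 3. The 4 in WT became 1 without WT tumour 1 or WT tumour 2 and 2 without WT non-tumour liver 1 or WT non-tumour liver 3. Such fits have fewer samples on 1 side, so the loss of a sample and the weight of a library cannot be told apart here. With the genotypes together the count stayed between 10 and 15 with 1 library left out. None was called between genotypes in tumours (0 of 55, 6 at an unadjusted p under 0.05), non-tumour livers (0 of 48, 2 unadjusted) or normal livers (0 of 46, 0 unadjusted), for the interaction (0 of 54, 8 unadjusted) or between non-tumour and normal livers (0 of 47, 17 unadjusted, where 20.8% of all genes had such a p).

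Ligands of the ERBB receptors were 4 of the 12 that rose with the genotypes together. Of 11 listed, 6 passed the filter in tumours against non-tumour livers of both genotypes, all 6 had a positive log2 fold change with a median of 1.19 (0.08 over all genes), and the 4 called were Btc, Hbegf, Nrg1 and Nrg4. Areg and Nrg1 passed only through the tumours. Areg had means of 0.235 TPM in WT and 0.0701 TPM in GKO non-tumour livers. Nrg1 had means of 0.938 TPM and 0.0613 TPM there, which together lie just under the filter of 0.5 TPM. Its WT mean came mostly from WT non-tumour liver 2 (2.64 TPM). In GKO mice Areg, Btc and Nrg1 (0.345 and 0.0613 TPM for the latter in GKO non-tumour livers) passed only through GKO tumours. The positive sign of such genes follows from the filter. The same 4 were called in GKO mice and 0 of 6 in WT mice. In GKO mice each of these 4 calls was lost without GKO non-tumour liver 2 or GKO non-tumour liver 3. With the genotypes together Btc and Nrg4 were called with any 1 of the 12 libraries left out, Hbegf in 7 of 12 cases and Nrg1 in 3 of 12. Markers of other cells moved in the same comparison: Acta2, Col1a1, Col1a2 and Col3a1 of the fibroblast list and Cdh5, Kdr and Pecam1 of the endothelial list were higher in tumours, and Dcn and Lrat of the former and Clec4f, Marco, Timd4 and Vsig4 of the macrophage list were lower, and their part in the ligand values was not tested. Hbegf, a membrane-anchored ligand of Egfr, was at 11.9, 6.80 and 3.23 TPM in GKO tumours and 1.08, 1.24 and 0.418 TPM in GKO non-tumour livers, a log2 fold change of 2.01 (adjusted p = 0.0253). WT tumours held less, at 1.68, 1.18 and 2.15 TPM. Nrg4, a ligand of Erbb4, was at 4.22, 6.44 and 8.38 TPM in GKO tumours and 4.68, 4.07 and 3.25 TPM in WT tumours, above all 6 non-tumour livers (0.945 to 2.85 TPM). Its receptor Erbb4 stayed at or below 0.912 TPM in every sample. Nrg1, which binds Erbb3, was at 3.99, 4.89 and 0.438 TPM in WT tumours and, in GKO tumours, 1.07, 2.54 and 2.78 TPM. WT non-tumour liver 2, the library that stood apart, was the 1 liver with a like level (2.64 TPM) and the other 11 livers were at or below 0.123 TPM. Tgfa was the most abundant of the ERBB ligands named here in all livers and in WT tumours 1 and 3. In GKO tumours 1 to 3 it was below Hbegf (11.9 TPM), Areg (7.45 TPM) and Nrg4 (8.38 TPM) in turn, and in WT tumour 2 below Nrg1 (4.89 TPM). It was not called in any comparison, with 1.67 to 7.61 TPM in tumours and 1.89 to 8.40 TPM in non-tumour livers. Egf itself was at or below 0.261 TPM in every sample.

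**Figure D4:**
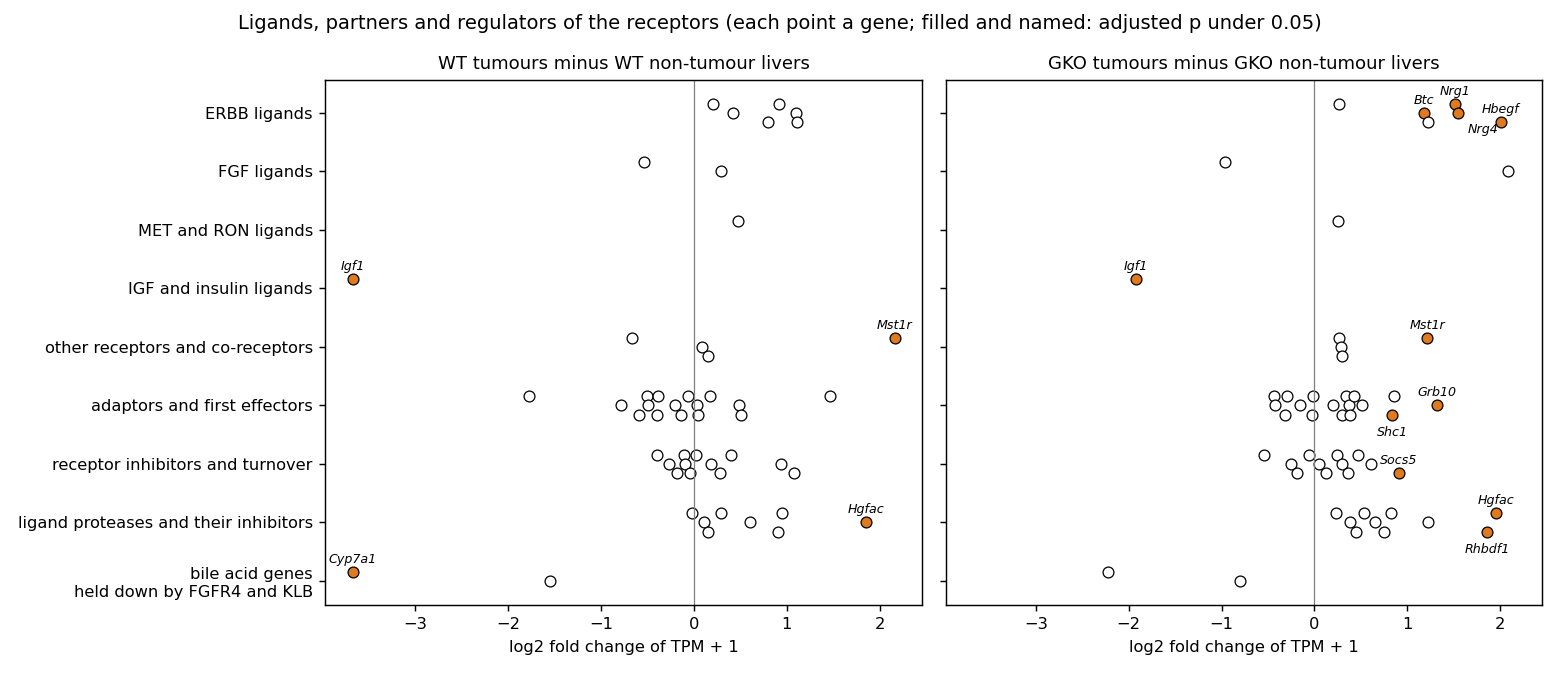
Log2 fold change (TPM + 1) of the tested genes of 9 lists around the receptors, tumours minus non-tumour livers, in WT (left) and GKO (right); each point is a gene, and those with an adjusted p under 0.05 are filled and named. Igf1 (−3.67 in WT and −1.92 in GKO), Mst1r (2.17 and 1.22) and Hgfac (1.86 and 1.96) are filled in each genotype, and the 4 filled ERBB ligands are in GKO.

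Of the ligands of Met and its relative Mst1r (RON), Hgf was at or below 0.732 TPM in every sample and Mst1, a liver-made plasma protein, was the higher by far, at 115 to 293 TPM in tumours. Mst1r was nearly absent from livers (0 to 0.469 TPM) and present in all tumours, at 4.32, 2.89 and 5.66 TPM in WT and 1.21, 3.76 and 1.61 TPM in GKO. It was called in WT (2.17, adjusted p = 0.00791), also with any 1 library left out, and in GKO (1.22, adjusted p = 0.0450), where the call held in 1 of 6 such cases. In each genotype Mst1r passed the filter only through the tumours (means of 0.160 and 0.302 TPM in WT and GKO non-tumour livers). Hgfac, the protease that activates the Hgf precursor, was at 444, 518 and 716 TPM in WT tumours and, in GKO tumours, 810, 410 and 398 TPM, above all 12 livers (81.7 to 197 TPM). Its log2 fold change was 1.86 in WT (adjusted p = 0.0461) and 1.96 in GKO (adjusted p = 0.0136). The WT call held in 1 of 6 cases with 1 library left out and the GKO call in 5 of 6. Rhbdf1, an inactive rhomboid protein that helps release ERBB ligands, was called in GKO (1.86, adjusted p = 0.00737) and with the genotypes together (1.41, adjusted p = 0.000827), in each case also with any 1 library left out.

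Igf1, the ligand of Igf1r, fell in tumours. WT tumours held 3.22, 3.15 and 21.2 TPM and WT non-tumour livers 107, 63.2 and 115 TPM, a log2 fold change of −3.67 (adjusted p = 0.0330). GKO tumours held 29.4, 32.9 and 86.0 TPM and GKO non-tumour livers 146, 176 and 188 TPM, a log2 fold change of −1.92 (adjusted p = 0.0290). With 1 library left out the call held in 2 of 6 cases in each genotype, and with the genotypes together (−2.80, adjusted p = 0.00220) in all 12. Igf2 was at or below 0.149 TPM in every sample, and Ins1 and Ins2 were listed at 0. Grb10, an adaptor that restrains Igf1r and the insulin receptor, was higher in tumours of both genotypes together (1.39, adjusted p = 0.00706), with 8.31 TPM in WT tumour 3 and 1.29 to 3.27 TPM in the other 5 tumours. It passed the filter only through the tumours (means of 0.383 and 0.311 TPM in WT and GKO non-tumour livers). The insulin receptor Insr, at 8.23 to 19.2 TPM over the 18 samples, was above Igf1r in all of them.

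For the Fgfr4 and Klb branch, Fgf15 was listed at 0 in all samples, as the hormone is made in the ileum. Fgf21, a ligand that needs Klb, ranged from 4.30 to 229 TPM over the samples, and its highest value was in WT non-tumour liver 2. Cyp7a1, the rate-limiting enzyme of bile acid synthesis and a gene that Fgfr4 signalling holds down, was at 0.754, 0.758 and 0.679 TPM in WT tumours and 11.6, 15.3 and 51.6 TPM in WT non-tumour livers (log2 fold change −3.68, adjusted p = 0.0134, lost without WT tumour 1 or WT tumour 2). GKO tumours held 54.3, 8.29 and 3.94 TPM of it and overlapped GKO non-tumour livers. In the same WT tumours Fgfr4 and Klb overlapped their livers, as given above.

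For each receptor that could be tested widely, the genes with the most similar values over the 18 samples were sought among 13891 genes by Pearson's r of log2(TPM + 1). The 18 samples share groups and tissue, and the highest of so many correlations are high by selection, so these are descriptions. Erbb3 was most like Fbxo3 (0.917) and Letmd1 (0.909), Met like Hacd1 (0.902) and Creb3l3 (0.890), and Fgfr3 like Ak3 (0.908) and Nlrp6 (0.905). In the 12 livers alone these 6 correlations were between 0.741 and 0.928. Fgfr2 was most like Fam20a (0.905) and Ptpn12 (0.883), but in the 12 livers alone these were 0.079 and −0.114, so that the likeness rested on the tumours. Fgfr4 was most like Rnf123 (0.821) and Dop1a (0.806), Klb like Suclg1 (0.877) and AI182371 (0.872), and Fgfr1 like Per1 (0.838) and Sox12 (0.812). Egfr had the weakest matches, Tmem19 (0.745) and Enho (0.723).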

How the data were processed

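RNA sequencing values of 18 samples in 6 groups of 3 were used. According to the submitters' processing notes, reads were mapped to mm10 by STAR 2.7.3a and assigned to genes by featureCounts 2.0.0, and the authors deposited TPM per gene, which sum to 1000000 per sample. How TPM was computed is not given in the sources used here. TPM multiplied by exonic length (GENCODE mouse release 21) gave whole reads (tolerance 0.02) for at least 97.96% of the values up to 30 reads. Counting error only is covered by read numbers.

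Groups were taken from the sample labels. In R 4.3.3, limma 3.58.1 (lmFit, then eBayes with a trend) was fitted to log2(TPM + 1) of all genes whose mean reached 0.5 TPM, with Benjamini-Hochberg adjustment over all of them and a threshold of 0.05. Tissue comparisons over both genotypes had genotype as a term. Other computations used Python 3.11.15. The fits were tested on simulated data. Alternatives were a pseudocount of 0.1, quantile normalization, median centring, no filter, a filter at 5 TPM, 1 fit of all 18 samples, eBayes without a trend, a replicate block, each replicate left out in turn, voom on the recovered reads, the mean of WT tumours 1 and 2 as 1 sample, and TPM rescaled to a common median.

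The receptors, lists and tests were chosen with earlier results of these data known. All 10 receptors are described. Of the lists, up to 5 called genes with the largest change in each comparison and the most abundant gene of each list were eligible for naming. Areg, Btc, Egf, Erbb4, Hgf, Igf2, Ins1, Ins2, Insr, Nrg1 and Fgf15 were named beside their receptors after their values were seen. Hgs was left out because its symbol occurs more than once. 1 gene of the cholangiocyte list is not reported here, and the list was summed without it. Replicate numbers do not mark a shared animal in the labels. By the cut of r over 0.1 in every pair, same-numbered samples deviated together only between WT and GKO tumours (r = 0.101, 0.120 and 0.197). GKO tumours and GKO non-tumour livers were all positive but not all above the cut (0.124, 0.069 and 0.041). Differently numbered samples could be as alike. WT tumour 2 and GKO tumour 1 were at 0.114, while the other such pairs of WT and GKO tumours were negative. WT non-tumour liver 1 and GKO non-tumour liver 2 were at 0.291. The cut therefore does not show that same-numbered samples belong together. Between WT and GKO tumours the paired fit called 0 receptors, as the unpaired fit did.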

Additional observations from a re-analysis of the deposited data

How the results depend on the processing

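In 5 comparisons (GKO against WT in tumours, non-tumour livers and normal livers, non-tumour against normal livers, and the interaction) 0 receptors were called under every alternative. The count in WT tumours against WT non-tumour livers was between 0 and 2 with 1 library left out and 1 under all other alternatives, and that in GKO tumours against GKO non-tumour livers between 0 and 1 with 1 library left out. With the genotypes together it was 1 (Fgfr3) with median centring, quantile normalization, all 18 samples in 1 fit and voom, and between 0 and 1 with 1 library left out. With the replicate block the counts were 1 in WT tumours against WT non-tumour livers and 0 elsewhere, so the block changed no receptor's call. Fgfr4 changed sign without being called: between GKO and WT tumours it ran from −0.34 to 0.14 with 1 library left out, and between WT tumours and WT non-tumour livers it was 0.032 with WT tumours 1 and 2 averaged and ran from −0.22 to 0.032 with 1 library left out. Fgfr2 in GKO tumours against GKO non-tumour livers was −0.27 with a pseudocount of 0.1, −0.080 with median centring, −0.054 with quantile normalization, −0.67 with voom and −0.60 to 1.31 with 1 library left out. Egfr between normal livers ran from −0.33 to 0.014, the latter without WT normal liver 2. Of the printed log2 fold changes, 692 of the values under alternatives kept direction and side of the threshold, 14 changed sign, 8 came under the threshold and 3 lost it. The cause of these changes was not tested. Among differences not printed, none of them called, 74 of the values changed sign and 341 kept direction and side of the threshold, so a larger share changed sign than among the printed ones. With TPM rescaled to a common median, 6 of 60 group means moved by more than 1 SD. The calls of pathway genes were recomputed under the alternatives after seeing the data, and their counts ran from 1 to 9 in WT tumours against WT non-tumour livers, 1 to 15 in GKO and 7 to 17 with the genotypes together. Erbb2, Fgfr1 and Igf1r are limited by their depth of at most 119 reads.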
